A study of Mus musculus with 27 samples.

Results

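Gas41, encoded by Yeats4, is a chromatin protein whose YEATS domain binds acetylated histone H3, and it is a subunit of the SRCAP and Tip60/p400 complexes that handle the histone variant H2A.Z. The 9 genes described here, Trpm2, Ankfy1, Stxbp2, Igfbp4, Mfsd11, Plekha3, Srpk1, Pola1 and Agxt2l2, were picked among 27080 counted genes and selected on measured values, namely their rise with the hairpin shGas41-2, and a mean of 15 CPM or more in the control cells (CPM, counts scaled to the total count of a library). That control level was reached by 8146 genes, and 136 of them rose past the 2-fold limit with shGas41-2, which is 1.67% of the 8146. The 9 are thus a hand-picked set out of 136, and their values with shGas41-2 are the basis of the choice and are given below without a test. The set was not built around a pathway and holds an ion channel, an orphan transporter, 3 genes of membrane traffic, a secreted growth factor-binding protein, a splicing kinase, a replicative DNA polymerase and a metabolic enzyme.

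RNA-seq was made from J1 mouse embryonic stem cells (mESCs), an established line grown without feeder cells on gelatin in serum with leukemia inhibitory factor (LIF). Cells carried a non-targeting control shRNA (shNT, labelled shCon; 3 libraries), shGas41-1 (3 libraries) or shGas41-2 (2 libraries), delivered by virus, selected with puromycin and harvested 8 days after infection. A separate set of control-shRNA cells was taken at day 0 (EB day 0, 2 libraries) and at day 6 (EB day 6, 2 libraries) of embryoid body (EB) formation, in which cells aggregate in low-attachment wells without LIF and differentiate. By the authors' methods, EB day 0 stands for undifferentiated cells still grown on gelatin with LIF. All groups thus carry an shRNA vector, and the labels do not say whether libraries of a group came from separate infections, so that p-values may measure technical spread only.

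Knockdown was seen in every library. Yeats4 stood at 63.2, 54.5 and 52.1 CPM in shNT, at 3.5, 4.42 and 4.79 CPM in shGas41-1 and at 8.68 and 7.67 CPM in shGas41-2, which leaves 7.49% and 14.4% of the control mean. Libraries held between 59224537 and 81524773 counts, so that 3 counts correspond to between 0.0368 and 0.0507 CPM, and each of the 9 genes was far above this floor in all 12 libraries. The 8 fixed ESC markers summed to 6530 to 6993 CPM in shNT, 5642 to 6364 in shGas41-1, 6121 to 6297 in shGas41-2, 6272 to 6591 at EB day 0 and 1310 to 1695 at EB day 6. Of these markers Klf4, Esrrb and Tfcp2l1 fell with shGas41-1, by 1.13, 1.04 and 1.55 on the log2 scale. No other ESC marker of the list was called with shGas41-1. With shGas41-2 the log2 fold changes of Klf4, Esrrb and Tfcp2l1 were −0.65, −0.44 and −0.83, and none was called. Fixed markers of primed epiblast and primitive streak summed to at most 41.3 CPM in any shNT library and 36.0 in any shGas41-1 library, against at least 1636 at EB day 6. Among them Evx1 (2.73) and Fgf5 (2.08) rose and Eomes (−1.0) fell with shGas41-1 in log2 fold change. With shGas41-2, Evx1 was called as well (2.845), while Fgf5 (1.31) and Eomes (−0.67) were not. Endoderm markers, of which Gata6 was called (1.76), summed to at most 2.14 CPM in shNT and 5.16 in shGas41-1. Trophoblast markers, of which Gata3 (4.30) and Cdx2 (2.50) were called, summed to at most 6.28 and 10.4 CPM, and fibroblast markers, of which Thy1 was called (−1.10), to at most 13.9 and 5.96 CPM. With shGas41-2, Gata3 was called as well (3.26), while Gata6 (0.94), Cdx2 (1.79) and Thy1 (−0.12) were not. Mean levels of Gata6, Gata3, Cdx2 and Fgf5 in shNT were only 0.117 to 0.223 CPM. The part of these shifts in the results below was not tested, and in whole cultures a change in the make-up of the cells cannot be told apart from a change per cell. Replicate 3 of shGas41-1 stood apart: the chi-square per degree of freedom between its counts and those of the other shGas41-1 libraries was 144 and 236, against 29.2 to 81.3 for every other pair of replicates, and results are given without it where it matters.

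The hairpins have separate target sites in Yeats4. The 21-base targets are shown because both were designed against the same mRNA while the 9 genes rose with either hairpin.
shGas41-1 target: gtagcattccacgacgttaag
shGas41-2 target: atcgttaagccaatcgtttat
Each occurs whole in Yeats4 transcripts, and the longest run the targets share with each other is 7 bases. Against the annotated transcripts of the 9 genes, the longest shared run ranged from 6 to 9 bases, the longest being that of the shGas41-2 target with Srpk1. No run is given for transcripts of unrelated genes, so these lengths have no background. Whether a hairpin acts on these transcripts directly was not tested.

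The 9 genes lie on 6 chromosomes of the mm9 build, and 4 of them, Ankfy1 (chr11:72503508-72585648), Igfbp4 (chr11:98902558-98913969), Mfsd11 (chr11:116713754-116736949) and Agxt2l2 (chr11:51398259-51417991), all on the plus strand, are on chromosome 11, which carries 8.37% of the 8146 genes. Chromosome 11 as a whole did not rise: its median log2 fold change with shGas41-1 was −0.122, within the range of −0.14 to −0.0385 over 20 chromosomes. Trpm2 (chr10:77370467-77433308), Srpk1 (chr17:28724593-28759466) and Pola1 (chrX:90550106-90877494) are on the minus strand, and Stxbp2 (chr8:3630955-3643644) and Plekha3 (chr2:76513338-76534885) on the plus strand. All 9 are protein-coding. They had a median of 8813 merged exon bases and 15 merged exons, against 3664 bases and 9 exons for genes at 15 CPM or more, and an exon GC content of 41.2% to 58.1%.

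Promoters were taken from RefSeq for all 9 genes (Agxt2l2 under its current symbol Phykpl), on the GRCm38.p6 build rather than the build of the counts. Mfsd11 had an additional promoter, so that the 9 genes gave 10 windows. A gene was counted for a motif if any of its windows held it, while shares of all promoters are per window. Windows of 250 bases before to 50 bases after the start held 15 to 36 CpG dinucleotides and 57.3% to 73.7% GC, against medians of 7 and 52.7% over 32851 promoters of the same length. That background was not limited to genes at 15 CPM or more, as the 9 genes were. The part of the expression limit in these differences, and in the motif shares below, was not tested. The 250 bases upstream of the start are printed for Trpm2, the gene with the widest rise, for Srpk1, the one with the smallest, for Igfbp4, the only one that rose in embryoid bodies, and for Pola1, which was lowered there the most. Capitals mark matches, on either strand, to the GC box (GGGCGG), the TATA box (TATAAA) or the CCAAT box (CCAAT), which do not overlap in these sequences.
Trpm2, chr10:77969873-77970122, minus strand: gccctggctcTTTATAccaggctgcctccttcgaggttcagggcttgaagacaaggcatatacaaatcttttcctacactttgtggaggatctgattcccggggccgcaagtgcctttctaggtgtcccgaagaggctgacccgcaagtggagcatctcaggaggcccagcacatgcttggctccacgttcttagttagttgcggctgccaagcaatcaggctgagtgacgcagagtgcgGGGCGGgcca
Srpk1, chr17:28622522-28622771, minus strand: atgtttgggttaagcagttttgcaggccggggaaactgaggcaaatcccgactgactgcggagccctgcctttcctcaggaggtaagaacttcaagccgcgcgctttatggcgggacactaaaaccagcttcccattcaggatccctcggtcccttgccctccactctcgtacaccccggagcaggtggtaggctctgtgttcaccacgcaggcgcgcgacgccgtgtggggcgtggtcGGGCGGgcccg
Igfbp4, chr11:99040994-99041243, plus strand: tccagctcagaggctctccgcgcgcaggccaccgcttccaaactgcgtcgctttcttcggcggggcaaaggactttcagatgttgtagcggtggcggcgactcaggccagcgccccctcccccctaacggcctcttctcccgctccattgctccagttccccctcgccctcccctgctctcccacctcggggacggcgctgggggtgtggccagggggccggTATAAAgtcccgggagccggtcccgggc
Pola1, chrX:93632156-93632405, minus strand: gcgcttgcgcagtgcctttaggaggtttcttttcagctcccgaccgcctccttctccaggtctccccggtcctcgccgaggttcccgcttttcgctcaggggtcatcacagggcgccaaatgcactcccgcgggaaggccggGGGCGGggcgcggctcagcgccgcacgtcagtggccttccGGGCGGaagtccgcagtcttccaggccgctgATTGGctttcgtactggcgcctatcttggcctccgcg
The GC box occurred in the windows of 6 of the 9 genes (Agxt2l2, Mfsd11, Plekha3, Pola1, Srpk1 and Trpm2) and in 35.7% of all promoters. The TATA box was found in Igfbp4, close to the start, and in Trpm2, far upstream of it and on the other strand, and in 13.6% of all promoters. CCAAT was found in Pola1 and in the more downstream Mfsd11 window only (37.4% of all). The E-box CACGTG was found in Stxbp2 (7.15%) and the AP-1 letters TGACTCA in Mfsd11 (5.20%). The letters TGACGTCA, GCGCATGC, CCGGAAGT and AAGATGGC were in none of the 10 windows and in 1.79%, 2.71%, 3.89% and 2.75% of all promoters. None of these short motifs was common to the 9 genes.

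Per length, in CPM per kilobase of merged exon, the control level of the 9 genes spanned from 49.2 ± 7.55 (SD, n = 3) for Ankfy1 down to 3.33 ± 0.469 for Agxt2l2. Srpk1 (28.2 ± 2.39) and Plekha3 (19.1 ± 2.02) came next after Ankfy1, each separate from the next gene in this order, although Plekha3 overlapped Mfsd11. Pola1 (15.7 ± 0.742), Mfsd11 (15.6 ± 2.84), Stxbp2 (13.6 ± 0.681) and Trpm2 (13.0 ± 2.63) overlapped from each to the next, while Pola1 (14.9 to 16.3) lay above Stxbp2 (12.8 to 14.1). Igfbp4 (7.03 ± 0.63) lay below them. In CPM, not divided by length, Igfbp4 (16.6) and Agxt2l2 (32.3) were the lowest of the 9 in shNT. Just outside the 15 CPM limit among genes raised with shGas41-2 were Adrb3 (14.6 CPM) and Irak3 (14.5 CPM), and just inside it, but not among the 9, were Cd300a (15.2 CPM) and Mettl7a3 (15.8 CPM). Ordered by the rise with shGas41-2, the 9 genes were spread over the 136, from rank 13 (Trpm2) to rank 128 (Srpk1).

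**Figure D1:**
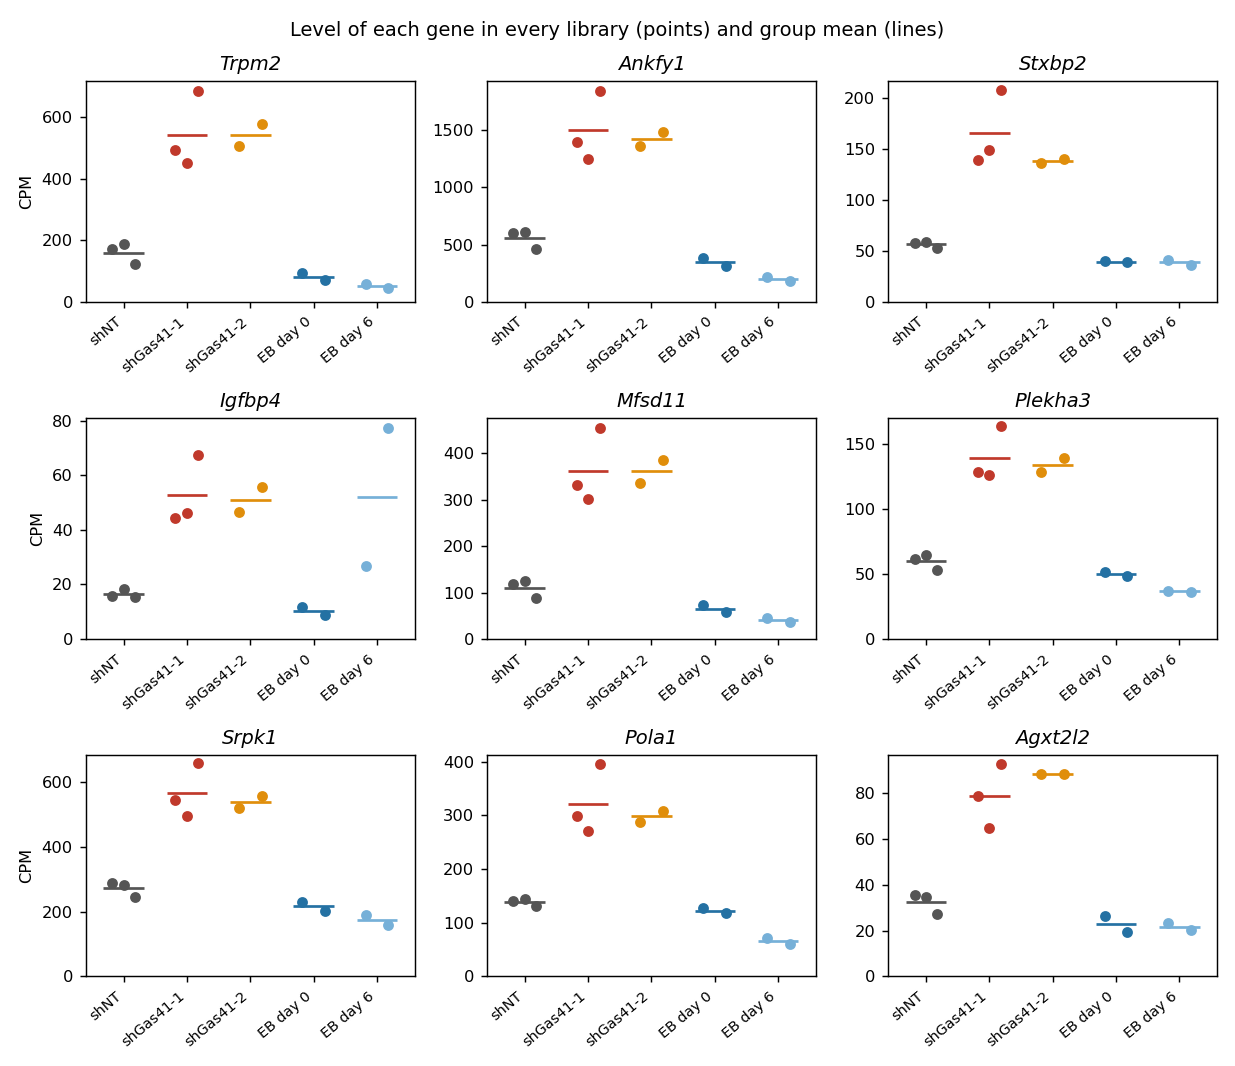
Level of each gene in CPM (vertical axes, starting at 0) in every library of the 5 groups (points) with group means (lines). All libraries of both hairpins lie above all shNT libraries in each panel, and EB day 0 lies below shNT. Igfbp4 alone has every EB day 6 library above every EB day 0 library, at 26.7 and 77.5 CPM.

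The comparison of shGas41-1 with shNT asked whether the genes chosen on shGas41-2 were also higher with the other hairpin. The genes were picked with earlier results of both hairpins known, so that the count is not independent of the choice. With shGas41-1, 9 of 9 were called, where a call means a false discovery rate (FDR) of at most 0.05 and at least a 2-fold change in edgeR's quasi-likelihood test, with fitted log2 fold changes of 1.14 to 1.85 and a median of 1.51. The background is low, since 166 of the 8146 genes at 15 CPM or more were called up (2.04%), as were 7.9% of all 18274 genes tested, with 2.4% called down; the median log2 fold change was −0.0822 over the 8146 genes and 0.02 over all tested. In raw CPM the means were 2.08-fold to 3.38-fold above shNT, and every shGas41-1 library was above every shNT library for 9 of 9 genes, a pattern that 10% of the 8146 genes showed. This comparison uses the same 3 shNT libraries as the one that chose the genes, and a low value in those libraries raises both.

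The comparison of shGas41-1 with EB day 0 shares no library with the contrast of shGas41-2 and shNT. Earlier results of shGas41-1 were nevertheless known when the genes were picked, so that its count is not independent of the choice either. There, too, 9 of 9 genes were called up, with log2 fold changes of 1.5 to 2.83 and a median of 2.18, against 3.25% called up among the 8146 genes and 8.86% among all 18828 tested. The median over the 8146 genes was −0.0948 and that over all tested 0.0254. Since EB day 0 cells belong to another sample set than the knockdown cells, set and knockdown cannot be told apart in these values. The sets did differ for these genes without knockdown. Every shNT library was above every EB day 0 library for 9 of 9 genes, as it was for 28.7% of the 8146, with shNT means 1.13-fold (Pola1) to 1.95-fold (Trpm2) those of EB day 0. The corresponding fold had a median of 1.00 over the 8146 genes, with its 5th and 95th percentiles at 0.693 and 1.35. The gap between shNT and EB day 0 was therefore in the same direction as the knockdown for each gene, and smaller than it.

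**Figure D2:**
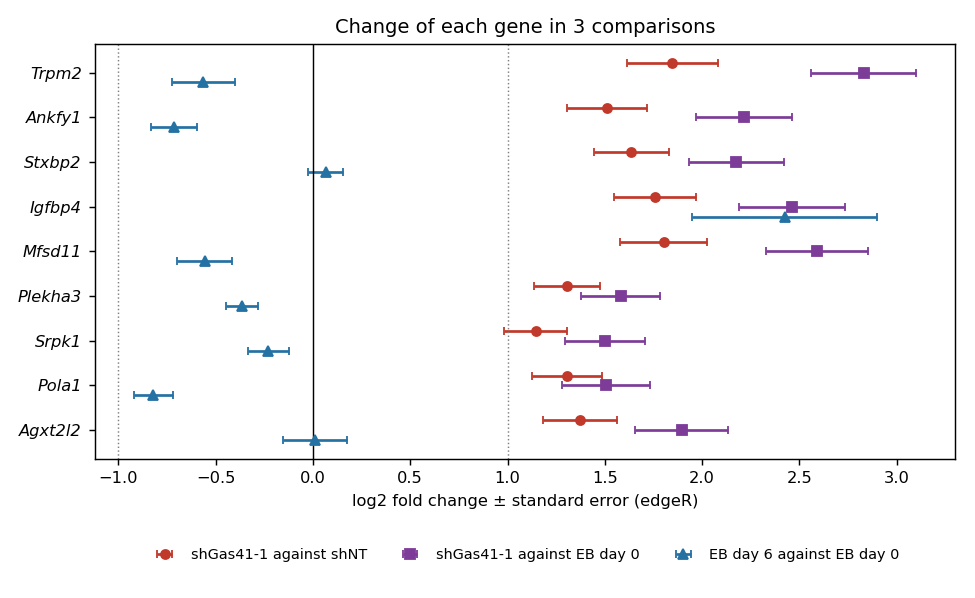
Log2 fold change of each gene (horizontal axis, edgeR fit, bars ± standard error) with shGas41-1 against shNT (circles), with shGas41-1 against EB day 0 (squares) and at EB day 6 against EB day 0 (triangles); dotted lines mark 2-fold. Both knockdown comparisons lie to the right of the 2-fold line for all 9 genes, from 1.14 to 2.83, while at EB day 6 Igfbp4 alone does, at 2.42.

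The channel and the transporter of the set changed most alike. Trpm2, a calcium-permeable cation channel opened by ADP-ribose, was at 170.2, 186 and 124 CPM in shNT, at 491, 449 and 684 CPM in shGas41-1, at 505 and 578 CPM in shGas41-2 and at 92.85 and 71.6 CPM at EB day 0. Means of both hairpins were 3.38-fold that of shNT, the widest rise of the 9. The fitted log2 fold change with shGas41-1 was 1.85 ± 0.23 (SE, FDR 0.00295) against shNT and 2.83 ± 0.27 (FDR 5.6e-04) against EB day 0. Of the 7 other TRPM channel genes, 5 were tested with shGas41-1 against shNT and 0 were called in either direction, with a median of −0.096. The most broadly expressed relatives of Trpm2 moved little, with a log2 fold change of 0.061 (FDR 0.744) for Trpm7 and 0.093 (FDR 0.701) for Trpm4.

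Mfsd11, an orphan member of the major facilitator superfamily of solute carriers, was at 118, 125 and 87.3 CPM in shNT, 330.2, 300.3 and 454 CPM in shGas41-1, 336 and 385 CPM in shGas41-2, and 72.4 and 57.3 CPM at EB day 0. As with Trpm2, the lowest shGas41-1 library was 2.41-fold above the highest shNT library. Its log2 fold change was 1.80 ± 0.22 (FDR 0.00292) against shNT and 2.59 ± 0.26 (FDR 5.6e-04) against EB day 0. Of 16 other MFSD genes tested, 1 rose: Mfsd7c, at 1.18 ± 0.29 (FDR 0.0241) from 1.18 CPM, and 0 fell. Mfsd7c was not called against EB day 0 (0.86, FDR 0.0654) or with shGas41-2 against shNT (0.84, FDR 0.0768). Unc93a of this list was called with shGas41-2 (2.55, FDR 0.00372), from 0.191 CPM in shNT. Mfsd11 shares 293 exon bases (4.15% of its own) with Srsf2 on the opposite strand and 257 (3.64%) with 1110005A03Rik on the same strand. Reads in the stretch shared with Srsf2 could have been left out, depending on a strand setting not given in the sources used here. A strand setting would not separate the reads shared with 1110005A03Rik. Srsf2 (0.08, FDR 0.643) and 1110005A03Rik (−0.40, FDR 0.128) were not called.

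The 3 genes of membrane traffic rose by 1.31 to 1.64 on the log2 scale with shGas41-1, whereas none of the relatives tested beside them was called (0 in each of the 3 lists). Ankfy1 encodes rabankyrin-5, an ankyrin-repeat and FYVE-domain effector of Rab5 on early endosomes, and was the most abundant of the 9 genes. It was at 602, 613 and 459 CPM in shNT, 1394, 1251 and 1845 CPM in shGas41-1, 1359 and 1482 CPM in shGas41-2, and 383 and 314 CPM at EB day 0. Even the lowest knockdown library, at 1251 CPM, held 2.04-fold the highest control. The fit gave 1.51 ± 0.21 (FDR 0.00315) against shNT and 2.21 ± 0.25 (FDR 6.7e-04) against EB day 0. None of 15 other early endosome and phosphatidylinositol 3-phosphate genes tested was called up or down (0 of 15; median −0.037), including Rab5a (0.12, FDR 0.547) and Eea1 (0.14, FDR 0.68).

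Stxbp2 encodes Munc18-2, which binds syntaxins and is needed for granule exocytosis in blood and epithelial cells. It was at 58.05, 58.5 and 53.4 CPM in shNT, 140, 149 and 208 CPM in shGas41-1, 136 and 140.0 CPM in shGas41-2, and 40.2 and 38.9 CPM at EB day 0. The rise was 1.64 ± 0.20 (FDR 0.00267) against shNT and 2.18 ± 0.24 (FDR 6.7e-04) against EB day 0. Of 10 other syntaxin-binding and Sec1/Munc18 genes tested, 0 were called (median −0.081), and the ubiquitous paralog Stxbp3a was at −0.01 (FDR 0.957).

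Plekha3 encodes FAPP1, a PH-domain protein that binds phosphatidylinositol 4-phosphate at the trans-Golgi. It was at 61.8, 64.9 and 52.7 CPM in shNT, 128, 126 and 163 CPM in shGas41-1, 129 and 139 CPM in shGas41-2, and 51.85 and 48.4 CPM at EB day 0. Control cells of both sets were close, with the lowest shNT library only 1.02-fold the highest EB day 0 library, and all knockdown libraries stood clear of them. Its log2 fold change was 1.31 ± 0.17 (FDR 0.00306) against shNT and 1.58 ± 0.20 (FDR 0.00128) against EB day 0, and 0 of 7 other PLEKHA genes tested were called (median −0.12).

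Igfbp4, a secreted protein that binds insulin-like growth factors (IGFs) and limits their access to the receptor, had the largest number of relatives called up, although the lists differ in size. It was at 15.9, 18.3 and 15.6 CPM in shNT, 44.3, 46.2 and 67.4 CPM in shGas41-1, 46.45 and 55.5 CPM in shGas41-2, and 11.8 and 8.83 CPM at EB day 0. Its log2 fold change was 1.76 ± 0.21 (FDR 0.00268) against shNT and 2.46 ± 0.27 (FDR 6.7e-04) against EB day 0. Of the 9 other genes of the IGF axis tested, 3 were called up with shGas41-1 and 0 down past 2-fold, both against shNT and against EB day 0. Among all genes tested, 7.9% and 8.86% were called up in these comparisons. The summed level of the list, Igfbp4 included, was 312 to 360.2 CPM in shNT and 299 to 336 CPM in shGas41-1. Igfbp2, the most abundant gene of the list, was lower against shNT, at 241 ± 17.4 and 171 ± 14.2 CPM (−0.42, FDR 0.0422), and at 0.28 (FDR 0.223) against EB day 0. Igf1r was at −0.77 (FDR 0.117) against shNT. Igf2, a fetal growth factor, went from 3.26 ± 0.698 to 11.6 ± 2.66 CPM (SD, n = 3; log2 fold change 1.90 ± 0.22, FDR 0.00251). The binding protein gene Igfbp3 went from 10.7 ± 1.15 to 23.6 ± 3.69 CPM (1.22 ± 0.15, FDR 0.00295). Igf1 was called as well, at 3.37 ± 0.35 (FDR 0.00224), but from 0.0637 ± 0.0169 to 0.646 ± 0.0777 CPM, close to the floor in controls. Igfbp4 stayed the most abundant of these 4 in shGas41-1 on the CPM scale.

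Srpk1 and Pola1 serve RNA splicing and DNA replication. Srpk1 phosphorylates serine/arginine-rich (SR) splicing factors and so directs their import into the nucleus. It was at 288, 283 and 246 CPM in shNT, 546, 497 and 659 CPM in shGas41-1, 520.5 and 559 CPM in shGas41-2, and 229 and 203 CPM at EB day 0. This was the smallest rise of the 9, with a log2 fold change of 1.14 ± 0.16 (FDR 0.00348) against shNT and 1.5 ± 0.21 (FDR 0.0018) against EB day 0. Without replicate 3 of shGas41-1 it was 0.97 against shNT (FDR 0.00159), just short of 2-fold, so that 8 of the 9 genes were called; over the 9 genes the log2 fold changes without that library were 0.97 to 1.59 (median 1.28). Of 16 other genes for SR protein kinases and SR proteins tested, 0 were called (median 0.096), and the paralog Srpk2 was at −0.10 (FDR 0.626).

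Pola1 encodes the catalytic subunit of DNA polymerase alpha, which extends the RNA primers laid down by primase. It was at 141, 144 and 131 CPM in shNT, 299, 272 and 395.5 CPM in shGas41-1, 287 and 309 CPM in shGas41-2, and 127 and 117 CPM at EB day 0. Control cells of both sets were alike within a fold of 1.13, the closest match of the 9 genes. The log2 fold change was 1.31 ± 0.18 (FDR 0.0033) against shNT and 1.51 ± 0.23 (FDR 0.00283) against EB day 0. Of 12 other replicative polymerase genes tested, 1 rose and 0 fell. This was Pola2, the accessory subunit that binds Pola1, at 164 ± 17.7 CPM in shNT and 404 ± 79.4 CPM in shGas41-1 (SD, n = 3; 1.39 ± 0.19, FDR 0.00315). The primase subunits of the same complex, Prim1 (0.11 ± 0.22, FDR 0.752) and Prim2 (−0.01 ± 0.19, FDR 0.976), were not called. Pola2 was also called against EB day 0 (1.96 ± 0.23, FDR 9.0e-04), and stood at 407 ± 35.0 CPM (n = 2) in shGas41-2.

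Agxt2l2 encodes the phospho-lyase that breaks down phosphorylated hydroxylysine, a product of collagen turnover. It was at 35.4, 34.5 and 27.1 CPM in shNT, 78.9, 64.7 and 92.9 CPM in shGas41-1, 88.35 and 88.3 CPM in shGas41-2, and 26.4 and 19.2 CPM at EB day 0. The log2 fold change was 1.37 ± 0.19 (FDR 0.00336) against shNT and 1.90 ± 0.24 (FDR 0.00116) against EB day 0. It shares 809 exon bases (8.34% of its own) with Hnrnpab on the opposite strand, which was far more abundant (505 CPM in shNT) and not called (−0.23, FDR 0.296). Of 2 other class III aminotransferase genes tested, Abat rose (1.18 ± 0.23, FDR 0.0104) from 2.15 ± 0.246 to 4.63 ± 1.26 CPM. Abat was also called against EB day 0 (1.205, FDR 0.0199), but was short of 2-fold with shGas41-2 against shNT (0.83, FDR 0.03).

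Over the fixed families together, 6 of 91 tested relatives rose with shGas41-1 against shNT and 0 fell, with a median log2 fold change of 0.0663. Against EB day 0, 5 of 92 rose and 0 fell. These shares are close to the 7.9% and 8.86% called up among all genes tested.

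Embryoid body formation asked whether the 9 genes rise when control cells differentiate. Only Igfbp4 did so past 2-fold, and 5 others were lower, 2 of them with either day 0 library left out. Igfbp4 went from 11.8 and 8.83 CPM at EB day 0 to 26.7 and 77.5 CPM at EB day 6, a log2 fold change of 2.42 ± 0.47 (FDR 0.00506). Of all 18287 genes tested, 16.6% were called up and 14.7% down. Among the 8146 genes at 15 CPM or more, 450 were called up and 783 down. The day 6 libraries differed widely from each other, although both were above both day 0 libraries, and without EB day 0 replicate 3 the FDR was 0.147. Without EB day 6 replicate 2 the log2 fold change was 3.01, and without replicate 3 it was 1.45. Other IGF axis genes rose with it: 6 of 8 tested were called up and 1 down, among them Igfbp3 (3.73 ± 0.24, FDR 5.5e-05) and Igf2 (3.47 ± 0.28, FDR 1.2e-04). Igfbp2 rose as well at EB day 6 (1.32, FDR 1.1e-04), as did the receptor gene Igf1r (1.46, FDR 1.1e-04), and neither rose with shGas41-1.

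At an FDR of at most 0.05 and any fold, 5 of the 9 genes were lower at EB day 6. So were 28.4% of all genes tested, and 2729 of the 8146 genes at 15 CPM or more. None of the 5 reached 2-fold. Without EB day 0 replicate 2, or without replicate 3, 2 of the 5 kept this FDR, namely Ankfy1 and Pola1. Pola1 fell by 0.82 on the log2 scale (SE 0.10, FDR 7.0e-04), from 127 and 117 to 71.0 and 59.7 CPM. Ankfy1 fell by 0.71 (SE 0.12, FDR 0.00259), from 383 and 314 to 215 and 186 CPM. Trpm2 and Mfsd11 had nearly equal values. Trpm2 went to 59.5 and 45.5 CPM, a log2 fold change of −0.56 ± 0.16 (FDR 0.0227; 0.154 and 0.0797 without EB day 0 replicate 2 or 3). Mfsd11 went to 46.1 and 37.1 CPM, at −0.56 ± 0.14 (FDR 0.0152; 0.11 and 0.065 likewise). The Plekha3 change was smaller, to 37.1 and 36.2 CPM (−0.37 ± 0.08, FDR 0.00871; 0.0787 and 0.0584 likewise). Srpk1 stood at 190 and 159 CPM at day 6 (−0.23 ± 0.11, FDR 0.11). Stxbp2, at 41.6 and 36.4 CPM (0.06 ± 0.09, FDR 0.575), and Agxt2l2, at 23.2 and 20.2 CPM (0.01 ± 0.16, FDR 0.959), overlapped day 0. Both EB day 0 libraries were above both EB day 6 libraries for 6 of the 9 genes, against 51.5% of the 8146 genes. The median log2 fold change of the 9 was −0.37, against −0.0365 over the 8146 genes and −0.00285 over all tested. Yeats4 itself was at 46.1 and 50.2 CPM at EB day 6 and 43.6 and 45.8 CPM at day 0. No gene of the 9 other than Igfbp4 was called up at EB day 6.

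Part of the order of libraries within a group was common to the 9 genes, and part was not. Replicate 3 was the highest of the shGas41-1 libraries for 9 of 9 genes (35.9% of the 8146), and replicate 3 was the lowest of the shNT libraries for 9 of 9 (40.6%). EB day 0 replicate 3 was below replicate 2 for 9 of 9 (45%). The other pairs were not ordered alike. Replicate 1 was above replicate 2 for 2 of 9 genes in shNT (49.5% of the 8146), 7 of 9 in shGas41-1 (51.1%) and 1 of 9 in shGas41-2 (57.6%), and EB day 6 replicate 2 was above replicate 3 for 8 of 9 (54%), Igfbp4 being the exception. Trpm2, for example, ranged from 124 to 186 CPM within shNT and from 449 to 684 CPM within shGas41-1. What differed between these libraries is not given by the labels, and its part in the results was not tested.

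**Figure D3:**
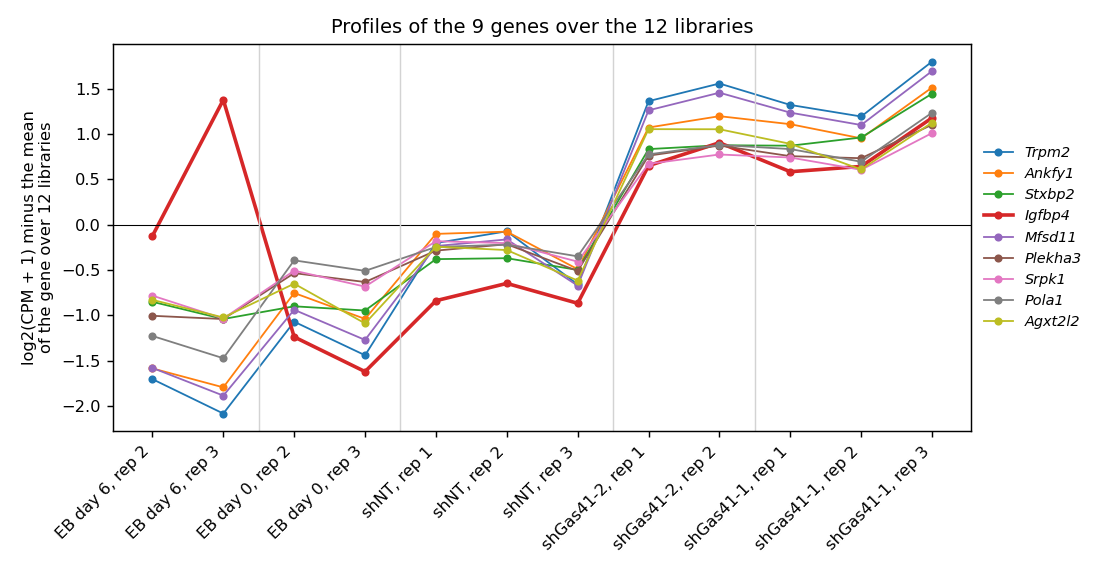
Profile of each gene over the 12 libraries, as log2(CPM + 1) minus the mean of that gene over all libraries (vertical axis), with libraries grouped along the horizontal axis. All 9 lines run from EB day 0 through shNT up to either hairpin; at EB day 6, 6 genes lie below both EB day 0 libraries, Stxbp2 and Agxt2l2 overlap them and Igfbp4 (thick line) lies above.

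Over all 12 libraries, Pearson's r of log2(CPM + 1) between each gene and the mean standardised profile of the other members was 0.954 to 0.993 for 8 genes and 0.521 for Igfbp4. The closest pair was Trpm2 and Mfsd11 (r = 0.999) and the least alike Igfbp4 and Pola1 (r = 0.387). These correlations describe 12 libraries in 5 groups, with the group differences included, and the genes were chosen for one of these differences. Outside the set, the 5 genes at 15 CPM or more with the most similar profile were Brap (r = 0.998), a ubiquitin ligase that binds BRCA1, Polg2, the accessory subunit of the mitochondrial DNA polymerase, Tax1bp3, a PDZ-domain protein, Scyl3, a pseudokinase, and Nmnat1, which makes NAD in the nucleus (r = 0.997 for the latter 4). Brap was at 77.6 ± 7.43 CPM in shNT and 185 ± 33.7 CPM in shGas41-1, and Nmnat1 at 73.6 ± 12.3 and 213 ± 49.1 CPM (SD, n = 3). The means of the 5 genes rose 2.27-fold to 2.90-fold. In all, 235 of 8137 such genes had r of 0.9 or more and 130 of 0.95 or more. With a pseudocount of 0.1 the 5 genes were still the closest, but over the 8 libraries of the knockdown set 0 of the 5 were among the closest 5, with r of 0.995 to 0.998 there, so that their order among similar genes is not resolved.

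Few genes beside the 9 were called, too few to compare their share with that of genes in general. Of 21 nearest and overlapping genes analysed, 18 were tested with shGas41-1 against shNT, 1 was called up (5.56%, against 7.9% of all genes tested) and 0 down, and their log2 fold changes had a median of −0.15. Against EB day 0, 2 of 20 tested were called up (10%, against 8.86%) and 1 down. The one called up against shNT was barely expressed: Retn, 12126 bases past Stxbp2, went from 0.192 ± 0.113 to 0.961 ± 0.402 CPM (2.43 ± 0.49, FDR 0.0121; 2.19, FDR 0.0318, against EB day 0). Well expressed neighbours were not called in either direction. Ube2g1, 3525 bases before Ankfy1, was at 53.1 ± 3.99 CPM in shNT and 44.9 ± 1.04 CPM in shGas41-1 (−0.16, FDR 0.363). Top2a, 17055 bases before Igfbp4, was at 488 ± 11.6 and 387 ± 33.9 CPM (−0.26, FDR 0.133), and Jmjd6, 8991 bases before Mfsd11, at 85.8 ± 4.56 and 64.2 ± 5.79 CPM (−0.34, FDR 0.0815). Nhp2, 15246 bases past Agxt2l2, was at 229 ± 32.8 and 256 ± 29.8 CPM (0.25, FDR 0.314). Beside Pola1, Pcyt1b was at 60.1 ± 12.5 and 31.5 ± 11.9 CPM (−0.87 ± 0.26, FDR 0.0482), lower at the FDR limit but short of 2-fold. Cyb5d2, on the other side of Ankfy1, was at 2.56 ± 0.729 and 4.22 ± 0.538 CPM (0.80, FDR 0.0542), and was called up against EB day 0 (1.03, FDR 0.014). Ttn, past Plekha3, was at 0.61 (FDR 0.053) against shNT and was called down against EB day 0 (−1.14, FDR 0.0225).

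**Figure D4:**
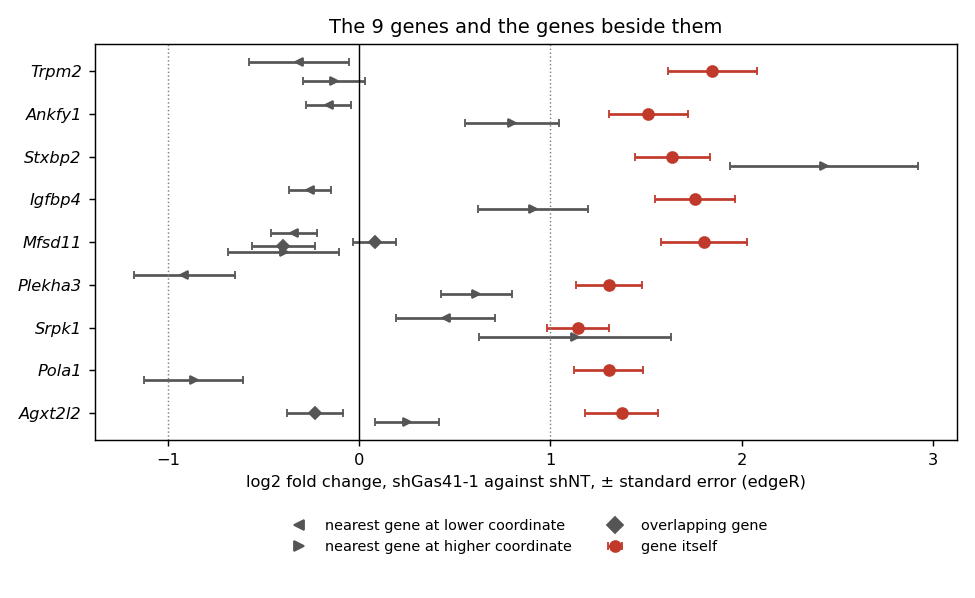
Log2 fold change with shGas41-1 against shNT (horizontal axis, edgeR fit, bars ± standard error) of each gene (circles), the nearest genes analysed (triangles) and overlapping genes (diamonds), for the 18 neighbours tested; dotted lines mark 2-fold. The 9 genes sit between 1.14 and 1.85, and of their neighbours only Retn (2.43) and Slc26a8 (1.13, FDR 0.146) reach past 1.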

How the data were processed

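RNA-seq of 12 libraries was used; ChIP-seq samples of the series were not analysed here. The authors mapped reads to mm9 with TopHat2 (version 2.0.10 in the submitters' processing notes) and deposited raw counts per gene from htseq-count. The strand setting and the annotation are not given in the sources used here. The fold change and p-value columns of the deposited tables hold the authors' own comparisons and were not used. Columns headed ESC in the embryoid body table were read as EB day 0. shNT counts were the same in both knockdown tables, and a gene absent from a table was taken as 0.

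CPM is the count divided by the total count of the library. Counts were fitted for each comparison, on its own libraries, with edgeR 4.0.16 (R 4.3.3): filterByExpr (minimum count 10, minimum total 15), TMM normalization and the quasi-likelihood F test of glmQLFTest. P-values were adjusted by the Benjamini-Hochberg method across every gene in the fit, and calls needed an FDR of at most 0.05 and an absolute log2 fold change of at least 1. Standard errors were derived as the absolute log2 fold change divided by the square root of the F statistic of that test. The same code was tested on simulated data. Gene positions come from the GENCODE annotation of mm9 (26910 of 27080 gene IDs matched), and promoters from RefSeq. Other settings tried were RLE factors, library size alone, no filter, DESeq2 1.42.0, a replicate block, each library left out, the FDR alone and counts halved. The genes named are the 9 members, Yeats4, called genes of the family and marker lists, nearest and overlapping genes, the 5 genes of most similar profile and genes at the 15 CPM limit; the relatives and neighbours quoted without a call were picked after their values were seen. The members and lists were chosen with earlier results of these data known. Some items are not reported here.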

Additional observations from a re-analysis of the deposited data

How the results depend on the processing

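The 9 genes were called up with shGas41-1 against EB day 0 under every setting tried, and against shNT under all but 1, with 8 to 9 called over the single libraries left out (8 without shGas41-1 replicate 3). With shGas41-2, the contrast of the choice, 8 to 9 passed over the libraries left out and 8 with library size alone. At EB day 6, 0 to 1 were called up over the libraries left out (0 without EB day 0 replicate 3, where Igfbp4 was at 2.24), and 5 were lower by FDR alone (2 without EB day 0 replicate 2 or 3). With library size alone, and likewise with the replicate block, 6 genes were lower at this FDR, Srpk1 being added. The 2 genes near 0 at EB day 6 changed sign. Stxbp2 was at −0.020 with library size alone and −0.019 without EB day 6 replicate 2 (−0.019 to 0.15 over the libraries left out). Agxt2l2 was at −0.074 with library size alone and −0.0030 with halved counts. It was at −0.19 without EB day 0 replicate 3 and −0.078 without EB day 6 replicate 2 (−0.19 to 0.25 over the libraries left out).

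Background counts moved more. By FDR alone, genes at 15 CPM or more called up were 422 (shGas41-1 against shNT), 791 (against EB day 0) and 342 (shGas41-2), genes down with shGas41-1 were 1412, and 5584 rose and 5195 fell at EB day 6. Over single libraries left out, shGas41-1 against shNT gave 905 to 1510 genes up and 290 to 549 down. Against EB day 0 it gave 724 to 1908 up, and 150 to 380 of those at 15 CPM or more. EB day 6 gave 2041 to 2946 up and 1669 to 3027 down. With an arm left at 1 library, that library is assumed to vary like the others. Replicate numbers were not taken to pair the samples: correlations of deviations were −0.356 to 0.134 over 3 pairs for shGas41-1 against shNT and 0.319 and 0.222 for shGas41-2 against shNT, which has only 2 pairs, and the labels name no shared batch. So the replicate block is given only in this section. It kept only libraries whose replicate number occurred in both groups. It thus left out shGas41-1 replicate 1 against EB day 0, and shNT replicate 3 for shGas41-2. In these comparisons the block and the missing library cannot be told apart. With the block, 9 of the 9 genes were called up with shGas41-1 in both comparisons. Against shNT, 1019 genes were up and 302 down, and 1631 were up against EB day 0. At EB day 6 it was 1 of 9, with 2975 up and 2656 down. With shGas41-2 it was 9, and 141 at 15 CPM or more.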
